A study of Homo sapiens with 17 samples.

Results

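Classical non-homologous end joining (NHEJ) is carried out by a small set of core factors, and 10 of their genes are described here: XRCC5, XRCC6, PRKDC, DCLRE1C, XRCC4, LIG4, NHEJ1, PAXX, POLL and POLM. They were chosen by name for their known role. All 10 had counts at both time points, when 15660 genes (36 h) and 17023 genes (72 h) had any. A minimum mean count of 20 in the footprint libraries and of 20 in the mRNA libraries left 9016 genes for testing at 36 h and 10896 at 72 h. Of the 10 genes, 9 passed this minimum at each time point, and DCLRE1C did not pass at either because of its low footprint counts.

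HEK293 cells, an established human embryonic kidney line, were electroporated with a ribonucleoprotein of the sgIntron guide and either Cas9 or dCas9, the Cas9 that binds DNA without cutting it. The guide targets intron 12 of JAK2, so Cas9 cells received a break in a noncoding stretch and dCas9 cells received the same guide and a protein that does not cut. Ribosome footprints, the mRNA pieces that translating ribosomes shield from nuclease, and mRNA were sequenced 36 h and 72 h later in 17 libraries, with 2 libraries for each nuclease, time point and library type and 1 more Cas9 mRNA library at 36 h. Each biological replicate pooled 4 electroporations in 1 plate. The guide was synthetic in the 36 h experiment and made by in vitro transcription in the 72 h experiment, and reads of each time point were aligned with a different program and annotation, so time after electroporation, guide preparation and read processing cannot be told apart.

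The counted totals were 689636 to 4868580 for the footprint libraries and 25095505 to 33350952 for the mRNA libraries at 36 h, and 3183555 to 8864461 and 33040296 to 42825667 at 72 h. At 36 h the 2 shallowest footprint libraries came from different nucleases, Cas9 replicate a with 957811 counts and dCas9 replicate e with 689636. The biological coefficient of variation, the typical spread of a gene between replicates, was 30.0% (36 h) and 7.57% (72 h) in footprints, and 11.2% (36 h) and 11.1% (72 h) in mRNA. Each time point was fitted over both library types with 1 shared spread. P-values for footprints at 36 h therefore rest on a smaller spread than those footprints show alone, and those for mRNA at 36 h on a larger one. At 72 h it is the other way round, with footprint P-values on a larger spread and mRNA P-values on a smaller one than each type shows alone. Of the genes taken as markers of HEK293 cells, VIM, KRT18, KRT8 and NEFM were counted in every mRNA library, while PAX2 had 0 to 12 counts. CD3E and HBB, markers of T cells and red cells, had 0 counts in every mRNA library. JAK2 transcripts had 131 to 270 counts at 36 h and 231 to 472 at 72 h, with 0 to 23 footprints, which is below the minimum for testing.

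In end joining, the Ku ring of XRCC6 (Ku70) and XRCC5 (Ku80) slides onto a broken end and recruits PRKDC, the catalytic subunit of the DNA-dependent protein kinase. The nuclease Artemis, encoded by DCLRE1C, opens hairpins and trims ends that cannot be joined directly. POLL and POLM, the family X polymerases lambda and mu, fill short gaps. The ligase LIG4 with its stabilizing partner XRCC4 seals the strands, and NHEJ1 (XLF) and PAXX, both relatives of XRCC4 in fold, help to hold the ends in line. The pathway works throughout the cell cycle and is the main route by which cultured human cells rejoin Cas9 cuts.

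In hg38, Ku is encoded by XRCC6 at chr22:41621163-41664048 (plus strand) and XRCC5 at chr2:216107464-216206303 (plus strand), and the kinase by PRKDC at chr8:47773111-47960178 (minus strand). The ligation genes are LIG4 at chr13:108207439-108218368 (minus strand), XRCC4 at chr5:83077498-83353787 (plus strand), NHEJ1 at chr2:219069355-219160869 (minus strand) and PAXX at chr9:136992422-136993984 (plus strand). The processing genes are DCLRE1C at chr10:14897359-14954432, POLL at chr10:101578882-101588270 and POLM at chr7:44072062-44082530, all on the minus strand. The same transcript was kept for each gene at both time points, except for POLM, where the counted part had 474 codons at 36 h and 489 at 72 h. Some counts may include reads of other genes, since XRCC6 has 5 annotated processed pseudogenes, DCLRE1C has 1 unprocessed pseudogene, and coding exons of NHEJ1 overlap a gene of the same strand, those of POLM the microRNA gene MIR6838 of the same strand, and those of POLL and PRKDC a gene of the opposite strand.

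The Ku genes led the pathway in every library. Levels were compared between genes as CPM (counts scaled to the size of each library) per kilobase of counted coding length. In dCas9 cells at 72 h, the mRNA level per length was 571 ± 4.42 (SD, n = 2) for XRCC6 and 346 ± 30.1 for XRCC5. PRKDC followed at 121 ± 15.9 and PAXX at 77.3 ± 13.9. The other 6 genes were far lower, from 19.8 ± 1.92 for NHEJ1 through 13.4 ± 2.65 for POLL, 11.5 ± 3.35 for XRCC4, 8.21 ± 2.88 for LIG4 and 6.41 ± 0.346 for DCLRE1C to 5.78 ± 0.658 for POLM. XRCC6, XRCC5, PRKDC, PAXX and NHEJ1 were each apart from the next gene in this order, whereas POLL, XRCC4, LIG4, DCLRE1C and POLM overlapped with their neighbours. At 36 h the means of PAXX lay above those of PRKDC in both library types and nucleases. In mRNA of dCas9 cells they were 121 ± 6.30 for PAXX and 85.1 ± 10.6 for PRKDC, and only in mRNA of Cas9 cells did their ranges overlap.

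Footprints gave the same upper end, and a different lower end. At 72 h in dCas9 cells the footprint level per length was 584 ± 4.03 for XRCC6, 383 ± 14.3 for XRCC5, 122 ± 3.12 for PRKDC, 89.3 ± 3.81 for PAXX and 30.1 ± 3.77 for NHEJ1, each apart from the next. XRCC4, POLL, POLM and LIG4 overlapped between 6.11 and 17.5, and DCLRE1C lay below all of them at 1.36 ± 0.163. XRCC6 and XRCC5 together held most of the summed level of the 10 genes, with 46.8% and 30.7% of the footprints at 72 h and 50.5% and 29.4% at 36 h in dCas9 cells. Among all tested genes, XRCC6 lay above 96.8% and LIG4 above 22.4% in footprints per length in dCas9 cells at 72 h.

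**Figure D1:**
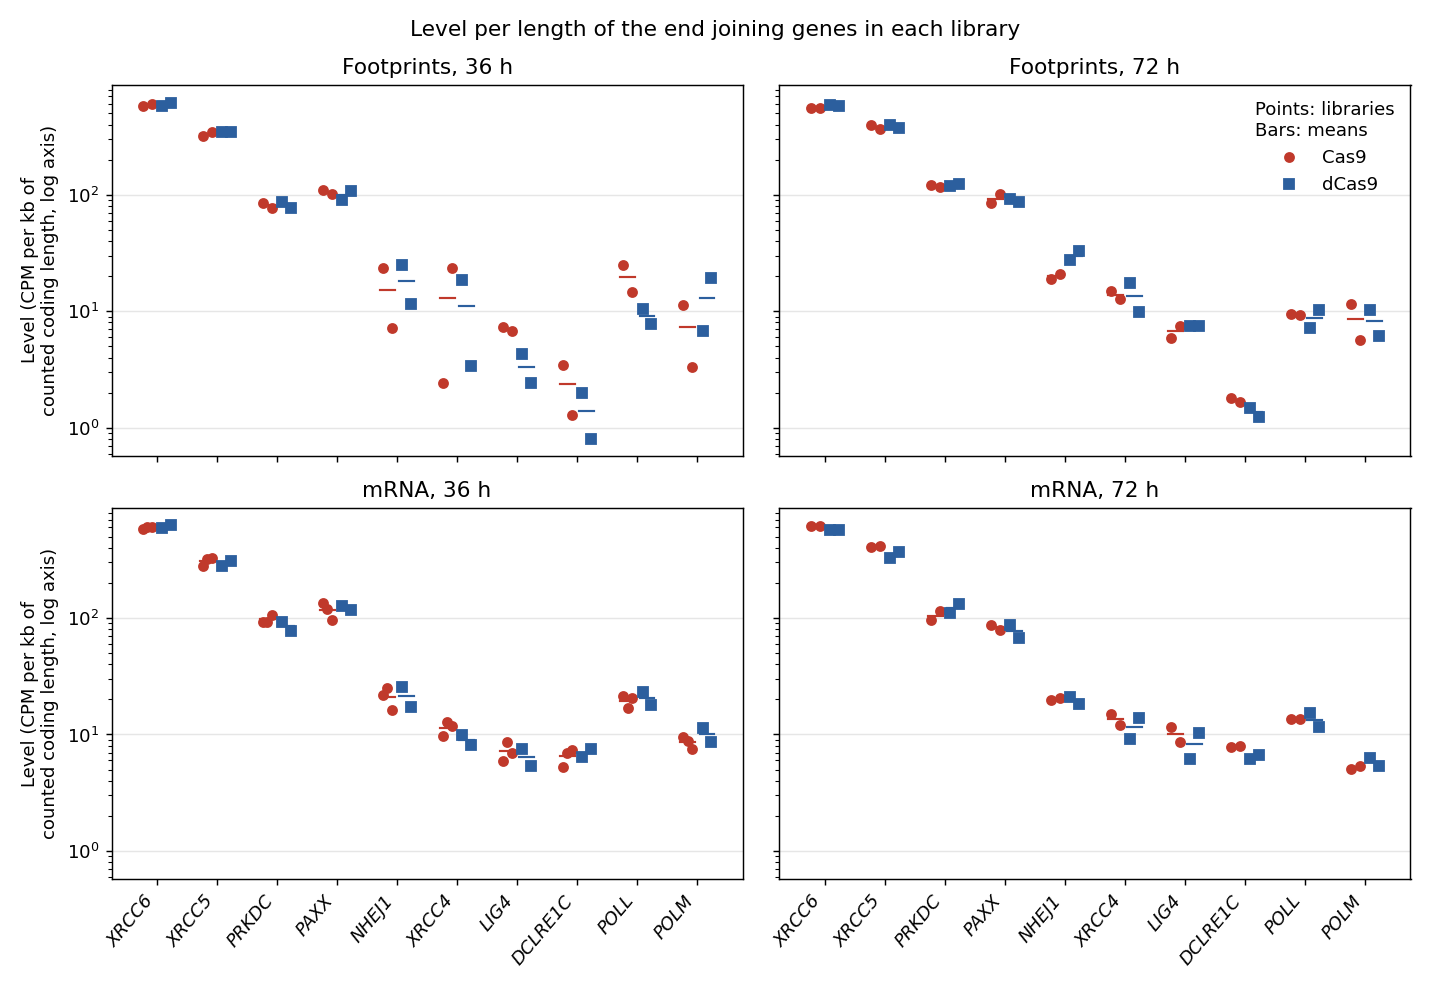
Level of each of the 10 genes in each of the 17 libraries, as CPM per kilobase of counted coding length on a log axis, for footprints (top) and mRNA (bottom) at 36 h (left) and 72 h (right); circles are Cas9 libraries, squares dCas9 libraries and bars their means. XRCC6 and XRCC5 lie between 277 and 628 in every panel, PRKDC and PAXX between 67.5 and 133, and the other 6 genes at most at 32.7, with the footprint means of DCLRE1C the lowest.

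The products of XRCC6 and XRCC5 act as a pair, and their levels were unequal in every library. The footprint level per length of XRCC6 was 1.66 to 1.82 times that of XRCC5 in the 4 libraries at 36 h and 1.39 to 1.56 times at 72 h. In mRNA the ratio was 1.84 to 2.11 in the 5 libraries at 36 h and 1.50 to 1.75 at 72 h. The ranges of both time points did not overlap in either library type, and how many other gene pairs behave this way was not tested. The steps that differ between the time points cannot be told apart from the time itself.

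PRKDC had 0.223 to 0.265 times the footprint level per length of XRCC5 at 36 h and 0.305 to 0.333 times at 72 h, while the mRNA ratio was 0.250 to 0.332 and 0.237 to 0.361. XRCC4 mRNA was 1.32 to 1.70 times that of its partner LIG4 at 36 h and 1.30 to 1.49 times at 72 h. The footprint ratio of these partners was 1.31 to 2.52 at 72 h but ran from 0.332 to 4.33 at 36 h. XRCC4 had 2 and 52 footprint counts in the Cas9 libraries a and c at 36 h and 83 and 2 in the dCas9 libraries d and e, so its level was low in the shallow library of each nuclease. POLL mRNA was 1.89 to 2.74 times that of POLM in the 9 mRNA libraries, and in footprints their order changed from library to library, from 0.402 to 4.43 times.

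Whether a nuclease break changes the relative output of the genes that repair it was asked by comparing Cas9 with dCas9 cells. All values are relative to the other genes of a library, so a change in total translation or total mRNA per cell would not be seen. None of the 9 tested genes changed in footprints, mRNA or translational efficiency (the footprint change less the mRNA change) at either time, by quasi-likelihood tests in edgeR at a Benjamini-Hochberg false discovery rate of 0.1. Over all genes, the percentage past this threshold at 36 h was 0% for footprints (862 genes, 9.56%, at an unadjusted P under 0.05), 0% for mRNA (26 genes, 0.288%) and 0% for translational efficiency (568 genes, 6.30%). DESeq2 gave 46, 0 and 1 genes, with none of the 9 among them. At 72 h it was 0% for footprints (396 genes, 3.63%, unadjusted, and 0 genes in DESeq2), 5.63% for mRNA (17% unadjusted, XRCC5 and PRKDC among them) and 0.716% for translational efficiency (11.2% unadjusted, NHEJ1 among them). The mRNA percentage came from 613 genes, 46 higher and 567 lower, and became 1963 genes, 616 higher and 1347 lower, with a correction for GC content. With mRNA fitted alone, 293 genes passed. Each library averages over all cells of its plates, so fewer cells that express a gene and less RNA per cell cannot be told apart.

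At 36 h the abundant genes were measured closely and barely differed. XRCC6 had 1029 and 1056 footprint CPM in Cas9 cells and 1015 and 1091 in dCas9 cells, a log2 change of -0.010 with a 95% interval of -0.22 to 0.20. XRCC5 had 684 and 737 CPM against 740.3 and 742, a log2 change of -0.058 (-0.31 to 0.19). PRKDC had 1046 and 952 CPM against 1065 and 955, a log2 change of -0.024 (-0.29 to 0.24). The groups overlapped for XRCC6 and PRKDC, and for XRCC5 the Cas9 libraries lay just below both dCas9 libraries, which 14.1% of all tested genes did. PAXX, at 61.0 and 56.6 CPM against 50.1 and 59.6, had a log2 change of 0.14 (-0.39 to 0.66).

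The less abundant genes had wide intervals in the 36 h footprints. POLL had 41.4 and 24.4 footprint CPM in Cas9 cells and 17.4 and 12.9 in dCas9 cells, a log2 change of 0.93 ± 0.37 (SE) with an interval of 0.15 to 1.72. LIG4 had 19.6 and 18.0 CPM against 11.5 and 6.44, a log2 change of 0.86 ± 0.45. Both genes were higher in each Cas9 library than in each dCas9 library, as were 16.3% of all genes. For POLL the unadjusted P of edgeR was 0.023 and the adjusted P 0.46, and for LIG4 they were 0.075 and 0.57. Counts behind these values were 36, 57, 82 and 8 for POLL and 17, 42, 54 and 4 for LIG4.

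NHEJ1 had 19.6 and 6.0 footprint CPM in Cas9 cells and 21.0 and 9.66 in dCas9 cells at 36 h, a log2 change of -0.70 with an interval of -1.92 to 0.52. For POLM the values were 16.1 and 4.71 against 9.56 and 27.4, a log2 change of -0.76 (-2.17 to 0.66). In these genes replicates of 1 nuclease differed as much as the nucleases did. XRCC4, with its 2 near-empty libraries, had a log2 change of 0.11 (-1.31 to 1.53). Single footprint libraries turned the direction of all 3 genes, with no value past the threshold. NHEJ1 went to -1.59 without Cas9 replicate a and to 0.13 without dCas9 replicate d. POLM went to -1.68 without dCas9 replicate d and to 0.19 without Cas9 replicate c, and XRCC4 to -2.58 without Cas9 replicate c and to 2.21 without dCas9 replicate d.

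The mRNA of all 9 genes overlapped between Cas9 and dCas9 libraries at 36 h, when 8.43% of all tested genes were higher and 8.5% lower in every Cas9 library, and log2 changes ran from -0.22 for POLM to 0.35 for XRCC4, each with an adjusted P of 1.00. None of the 9 passed with mRNA fitted alone either, where 2 genes in all did. Among the abundant genes PRKDC differed most, with 1136, 1140.4 and 1315 CPM in Cas9 cells and 1142 and 957 in dCas9 cells, a log2 change of 0.19 ± 0.11. The median log2 change of the 9 genes was -0.012 in mRNA and -0.010 in footprints, beside -0.00027 and 0.015 over all tested genes.

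At 72 h, where footprint libraries were deeper, the Ku and kinase genes again differed little in footprints. XRCC6 had 975 and 979 footprint CPM in Cas9 cells and 1039 and 1029 in dCas9 cells, a log2 change of -0.082 (-0.25 to 0.082). XRCC5 had 851 and 784 against 841 and 798, a log2 change of -0.0050 (-0.19 to 0.18). PRKDC had 1499 and 1430.0 against 1477 and 1532, a log2 change of -0.039 (-0.25 to 0.18). The groups of XRCC5 and PRKDC overlapped. XRCC6 was lower in both Cas9 libraries, as were 15.8% of all tested genes. Its unadjusted P in edgeR was 0.30 and its adjusted P 1.00.

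NHEJ1 showed the largest footprint difference of the 9 genes at 72 h. It had 15.9 and 17.6 footprint CPM in Cas9 cells (48 and 99 counts) and 23.0 and 27.5 in dCas9 cells (147 and 230 counts). Both Cas9 libraries lay below both dCas9 libraries, which held for 3 of the 9 genes (XRCC6, LIG4 and NHEJ1) and for 15.8% of all tested genes, while none of the 9 was higher in both Cas9 libraries, as 16% of all genes were. The log2 change was -0.58 ± 0.19 with an interval of -0.99 to -0.18, an unadjusted P of 0.0080 and an adjusted P of 1.00 in edgeR. NHEJ1 mRNA overlapped between the nucleases, with 16.5 and 17.2 CPM against 17.8 and 15.5, a log2 change of 0.023 ± 0.16. Its translational efficiency differed by -0.61 ± 0.25 (adjusted P = 0.37).

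In mRNA at 72 h the estimates were above 0 for both Ku genes and below 0 for PRKDC, none of them past the threshold. Whether the Ku genes differed from PRKDC in this was not tested. XRCC5 had 862 and 879 mRNA CPM in Cas9 cells and 694 and 785 in dCas9 cells, a log2 change of 0.24 ± 0.088 (adjusted P = 0.17). XRCC6 had 1099 and 1089.9 against 1005 and 1017, a log2 change of 0.11 ± 0.076 (adjusted P = 0.46). The Cas9 libraries of both Ku genes lay above the dCas9 libraries, as they did for 23.8% of all tested genes, and none of the 9 genes lay wholly below, as 25.8% did. PRKDC had 1176 and 1404 CPM against 1358 and 1635, groups that overlap, with a log2 change of -0.21 ± 0.10 (adjusted P = 0.29).

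These mRNA values depended on single libraries and on GC content. PRKDC passed the threshold without Cas9 replicate b (log2 change -0.37, adjusted P = 0.077), without dCas9 replicate a (-0.33, adjusted P = 0.052) and with a GC content correction (-0.27, adjusted P = 0.018), and its log2 change shrank to -0.10 (adjusted P = 1.00) without Cas9 replicate a and to -0.13 (0.39) without dCas9 replicate b. Without dCas9 replicate b, XRCC5 (0.27, adjusted P = 0.041) and LIG4 (0.65, adjusted P = 0.026) passed instead. LIG4 had 31.0 and 23.0 mRNA CPM in Cas9 cells and 16.5 and 27.4 in dCas9 cells, groups that overlap, and its log2 change over all libraries was 0.29 ± 0.21. Of the other genes, XRCC4 (0.23), PAXX (0.10), POLL (0.026) and POLM (-0.16) overlapped between the nucleases.

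**Figure D2:**
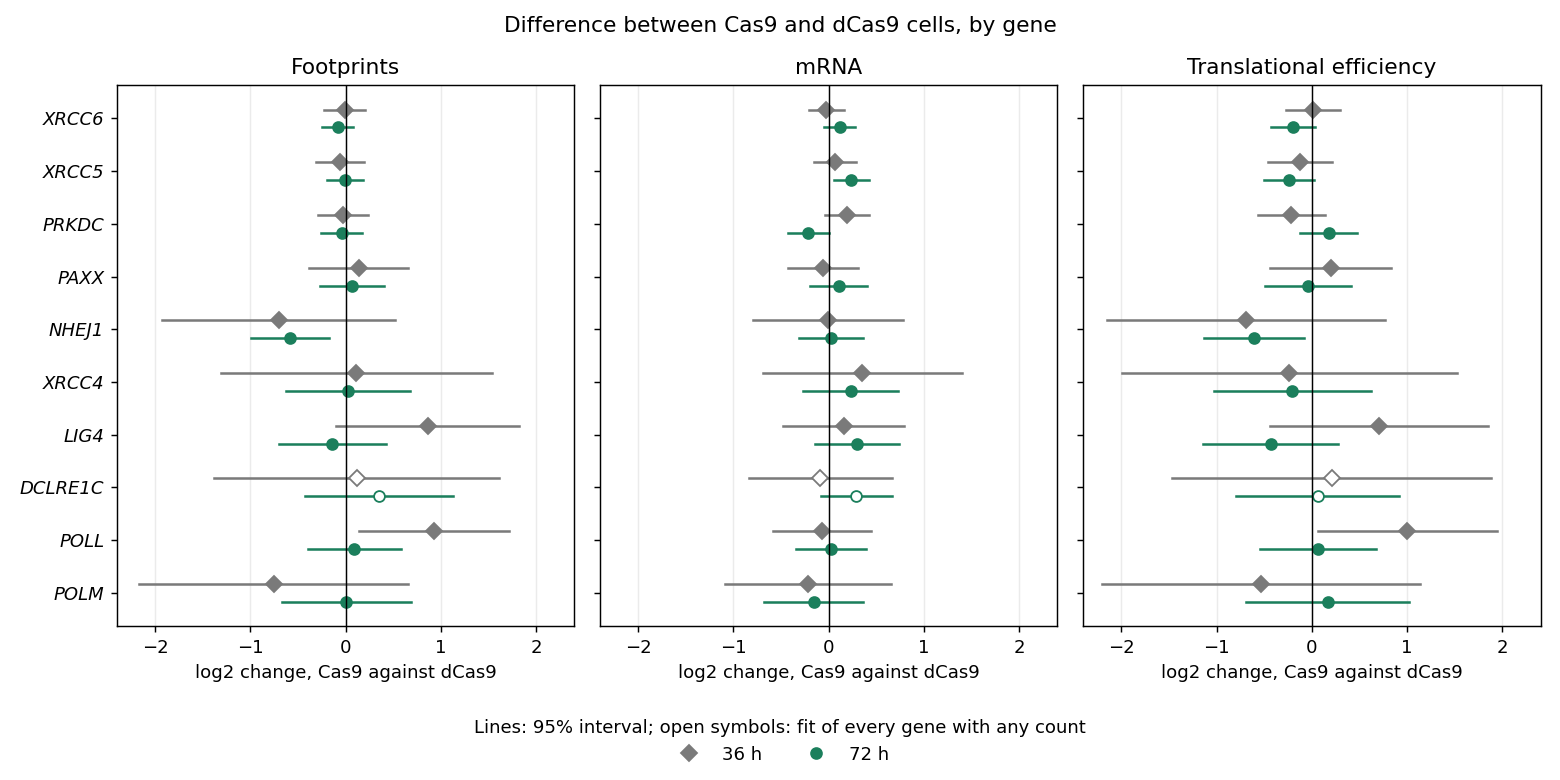
Log2 change between Cas9 and dCas9 cells for footprints, mRNA and translational efficiency; diamonds are 36 h, circles 72 h, lines 95% intervals, and open symbols DCLRE1C from a fit of every gene with any count. Intervals of XRCC6, XRCC5 and PRKDC are narrow and close to 0 in footprints, those of the rarer genes at 36 h span more than 1 log2 unit, and in footprints NHEJ1 at 72 h and POLL at 36 h lie farthest from 0 relative to their intervals.

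The difference between the 72 h and the 36 h effect was tested in 1 fit of all 17 libraries. None of the 9 genes passed in footprints, mRNA or translational efficiency, where 0.0223%, 0.524% and 0.0111% of 8970 genes did. The smallest unadjusted P was that of PRKDC mRNA, which went from 0.19 at 36 h to -0.21 at 72 h, a difference of -0.40 ± 0.16 (adjusted P = 0.52 in edgeR). For LIG4 footprints the difference was -0.97 ± 0.53 and for POLL footprints -0.81 ± 0.44 (adjusted P = 0.65 for each).

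DCLRE1C, below the count minimum, was fitted with every gene that had any count. Its footprint counts were 6 and 6 in Cas9 cells and 19 and 1 in dCas9 cells at 36 h, and 11 and 19 against 19 and 21 at 72 h. Its mRNA had 15.7 and 16.1 CPM in Cas9 cells and 12.4 and 13.4 in dCas9 cells at 72 h, a log2 change of 0.29 ± 0.19 (adjusted P = 0.59). The footprint log2 change was 0.12 (-1.38 to 1.61) at 36 h and 0.35 (-0.43 to 1.12) at 72 h, so these counts do not bound it closely.

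Base composition moved with the mRNA difference. The coding regions of LIG4 (37.8% GC), XRCC4 (38.8%), XRCC5 (42.6%), DCLRE1C (43.6%), PRKDC (45.9%), XRCC6 (47.8%) and NHEJ1 (50.8%) lay below the median of all tested genes, which was 51.7% at 72 h, and those of POLL (58.0%), POLM (63.8%) and PAXX (66.5%) above it. Over all genes the rank correlation of GC content with the mRNA log2 change was -0.256 at 36 h (8994 genes) and -0.414 at 72 h (10856 genes). Among the 9 tested genes it was -0.850 and -0.617. These are correlations across genes that share the same libraries, and they describe the plotted points only.

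A fit that offsets this trend changed the 72 h mRNA values of the AT-rich genes. XRCC5 went from a log2 change of 0.24 to 0.090 and LIG4 from 0.29 to 0.046, while PRKDC went from -0.21 to -0.27. The part of GC content in the mRNA differences of these genes was not tested further.

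**Figure D3:**
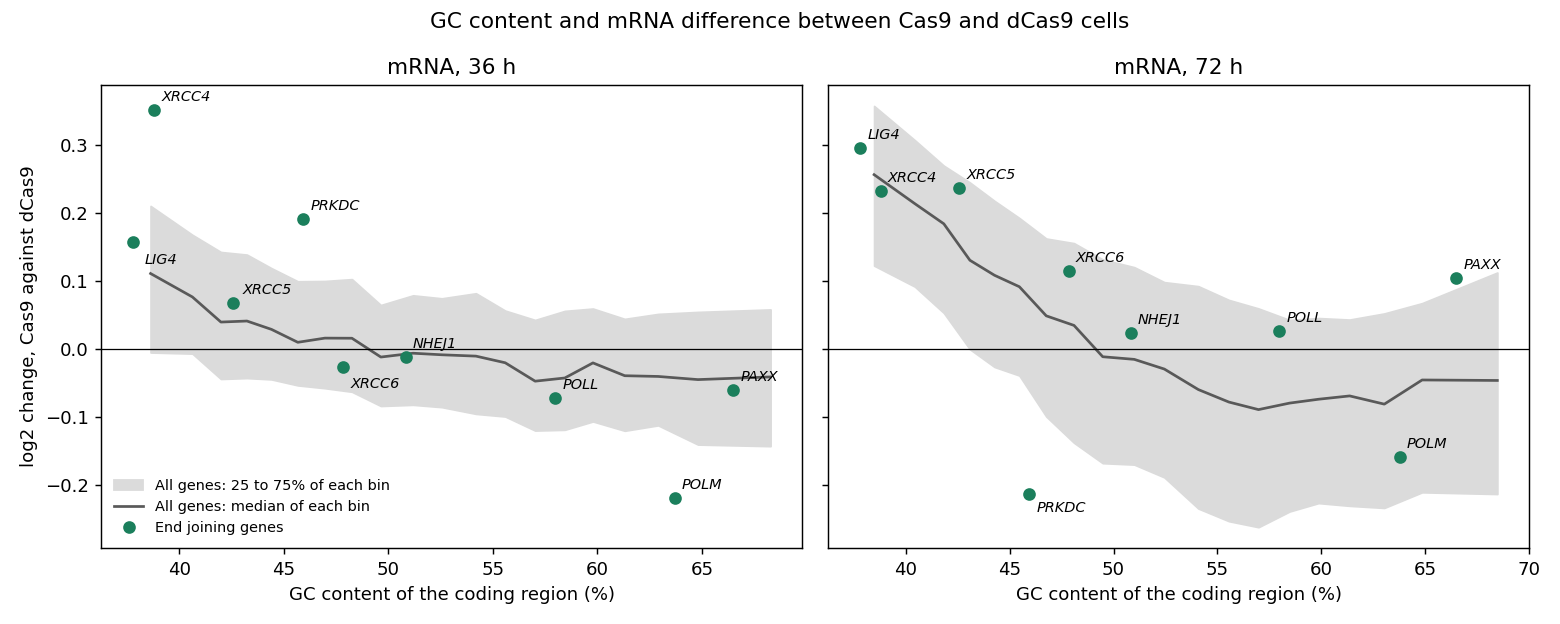
GC content of the coding region against the mRNA log2 change between Cas9 and dCas9 cells at 36 h (left) and 72 h (right); the line is the median and the band the middle 50% of all tested genes in 20 bins of GC content, and points are the 9 tested end joining genes. The median falls from 0.26 in the most AT-rich bin to -0.089 at 57.0% GC at 72 h. In that panel XRCC4, XRCC5, XRCC6, NHEJ1, POLL and POLM lie inside the band, with PRKDC below it, PAXX just above it and LIG4 at its AT-rich end. At 36 h PRKDC and XRCC4 lie above the band and POLM below it.

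How many footprints a transcript carried for its mRNA level was compared within dCas9 cells, as the ratio of footprint CPM to mRNA CPM, which is 1 for a gene with equal shares in both libraries. At 72 h most of the 9 group means lay close to 1. In dCas9 cells at 72 h the ratio of group means was 1.02 for XRCC6, 1.11 for XRCC5, 1.01 for PRKDC and 1.16 for PAXX. It was 1.18 for XRCC4, 0.914 for LIG4 and 1.41 for POLM. Single combinations of libraries ran from 0.705 to 1.90 for XRCC4 and from 0.732 to 1.22 for LIG4. At 36 h the LIG4 ratio of group means in dCas9 cells was 0.521. The ratio passed the test for 2 of the 9 genes at 72 h, NHEJ1 above 1 (as 32.7% of all tested genes) and POLL below 1 (as 37.8%), when 70.6% passed in all. At 36 h POLL passed, below 1 as were 24.6% of all genes, when 48.2% passed in all. The P-values at both time points rest on a single spread for library types that varied unequally, more so at 36 h.

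NHEJ1 carried 1.52 times as many footprints as its mRNA share in dCas9 cells at 72 h, with 1.30, 1.49, 1.55 and 1.78 in the 4 combinations of a footprint and an mRNA library (log2 ratio 0.61 ± 0.17, adjusted P = 0.0042). At 36 h its ratio was 0.992 and 0.676 in the 2 dCas9 lysates. POLL had 0.475, 0.630, 0.673 and 0.893 in dCas9 cells at 72 h (log2 ratio -0.60 ± 0.20, adjusted P = 0.014) and 0.450 and 0.432 at 36 h (-1.07 ± 0.33, adjusted P = 0.017). POLL no longer passed at 36 h without dCas9 mRNA replicate d (-0.88, adjusted P = 0.12), nor at 72 h without dCas9 mRNA replicate a (-0.31, adjusted P = 0.18) or dCas9 footprint replicate e (-0.38, adjusted P = 0.17).

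DCLRE1C had the lowest ratio of the 10 genes in dCas9 cells. At 72 h it was 0.187 to 0.239 in the dCas9 combinations and 0.211 to 0.232 in the Cas9 combinations, so all 8 values lay close together and below those of every other gene. At 36 h the lysates gave 0.314 and 0.106 in dCas9 cells and 0.647 and 0.173 in Cas9 cells. In the fit of every gene with any count, its log2 ratio was -2.23 ± 0.27 at 72 h (adjusted P = 3.9e-15) and -1.91 ± 0.57 at 36 h (adjusted P = 0.0064). In the same fit 30.2% of 17023 genes passed below 1 at 72 h and 18.3% of 15660 at 36 h. Per length, its mRNA level in dCas9 cells at 72 h (6.41) was close to that of POLM (5.78), and its footprint level (1.36) far below (8.18 for POLM).

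**Figure D4:**
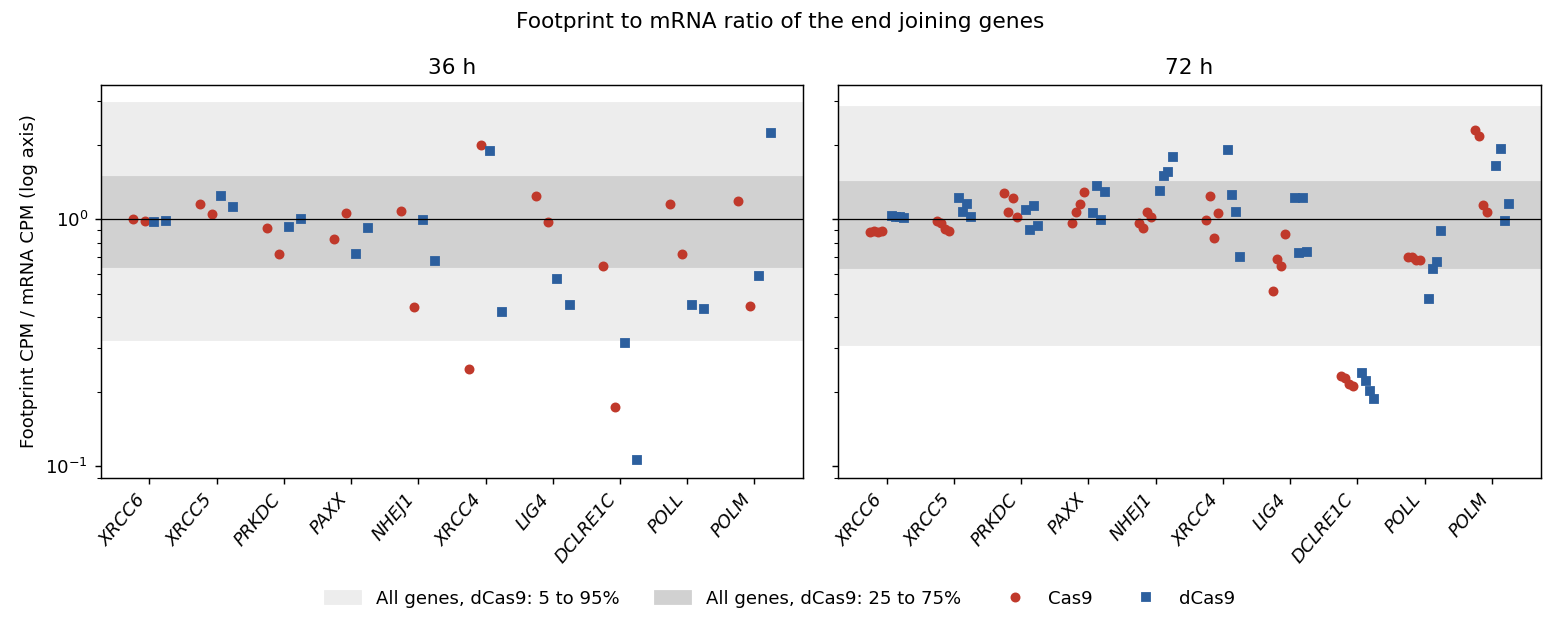
Footprint CPM divided by mRNA CPM of each gene on a log axis at 36 h (left, 1 point for each lysate) and 72 h (right, 1 point for each of the 4 combinations of a footprint and an mRNA library, which share libraries); circles are Cas9, squares dCas9, and bands give the middle 50% and 90% of all tested genes in dCas9 cells. XRCC6, XRCC5, PRKDC and PAXX sit near 1, DCLRE1C lies between 0.187 and 0.239 at 72 h, below a band drawn from genes that passed the footprint minimum it did not pass, and at 72 h the NHEJ1 ratios of dCas9 cells, 1.30 to 1.78, lie above those of Cas9 cells.

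Between the nucleases, the ratios of XRCC6, XRCC5 and NHEJ1 did not overlap at 72 h and were lower in Cas9 cells, as were those of 11.2% of all tested genes, and none of the 9 was higher throughout, as 15.7% were. XRCC6 had 0.887 to 0.898 in Cas9 cells against 1.01 to 1.03 in dCas9 cells, XRCC5 had 0.892 to 0.987 against 1.02 to 1.21, and NHEJ1 had 0.922 to 1.07 against 1.30 to 1.78. In edgeR's test of translational efficiency, the log2 differences were -0.20 ± 0.11 for XRCC6 (adjusted P = 0.53) and -0.24 ± 0.12 for XRCC5 (adjusted P = 0.50). The parts were a footprint difference of -0.082 and an mRNA difference of 0.11 for XRCC6, and of -0.0050 and 0.24 for XRCC5, none of which passed the threshold. At 36 h the ratios of LIG4 and POLL were higher in both Cas9 lysates (0.970 and 1.24 against 0.451 and 0.571 for LIG4, 0.719 and 1.15 against 0.432 and 0.450 for POLL), as were those of 16.7% of all genes. PRKDC was lower (0.724 and 0.921 against 0.933 and 0.998), as were 14.8%.

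The bases around the start codon, which the scanning ribosome reads, differ among these genes, and 6 that cover the range of ratios are shown here. Each is read from the MANE Select transcript (GENCODE release 44, hg38) from 9 bases before the start codon to the base after it, 5′ to 3′, with the base at -3, the start codon and the base at +4 in capitals.
NHEJ1: ccgctgAcgATGG
XRCC5: accggcAacATGG
DCLRE1C: ggcggcGctATGA
LIG4: accgctTtgATGG
POLL: catactTcaATGG
POLM: gtcgtcCcaATGC

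LIG4, POLL and POLM lack the A or G at -3 that 87.7% of 10511 tested genes carry at 72 h, and DCLRE1C, XRCC6 and POLM lack the G at +4 that 54.7% carry. NHEJ1, XRCC5, PRKDC, XRCC4 and PAXX, like 47.9% of genes, have both. The genes without A or G at -3 had ratios of 0.914 (LIG4), 0.655 (POLL) and 1.41 (POLM) in dCas9 cells at 72 h, and DCLRE1C, with G at -3, had a ratio of 0.212. Whether the ratio goes with this base was not tested. POLL also has the longest leader of the 10 genes, 482 bases with 1 ATG, where the median of tested genes was 138 bases and 39.4% had at least 1 ATG. XRCC6 has 1 ATG in a leader of 66 bases, and the other 8 genes have none. These leaders are those of the MANE Select transcripts. The transcript kept for counting was another one for POLL, LIG4, XRCC4 and XRCC6, and for POLM at 72 h. Which leaders these cells use was not tested.

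Neighbouring genes of break repair were compared as lists. Of 20 genes that prepare ends or steer the choice of pathway, 17 were tested at 72 h, and 1 passed in mRNA, where 5.63% of all tested genes did. It was MDC1, the scaffold that binds phosphorylated H2AX at breaks, which had a log2 change of -0.70 ± 0.10 (adjusted P = 0.0013). MDC1 was also the only one of them to pass in translational efficiency, at 0.63 ± 0.15 (adjusted P = 0.095), where 0.716% of all tested genes passed. Its footprint log2 change was -0.074 ± 0.11 and did not pass, so the translational efficiency value came mostly from the mRNA difference. Of 9 genes of alternative end joining, 8 were tested, and 2 passed in mRNA at 72 h. PARP1 (-0.36 ± 0.082, adjusted P = 0.023) and PARP2 (-0.44 ± 0.12, adjusted P = 0.048), sensors of DNA breaks, were both lower in Cas9 cells. The PARP1 and PARP2 calls were lost without Cas9 mRNA replicate a (adjusted P = 0.62 and 0.67) and with mRNA fitted alone (0.16 and 0.14). The MDC1 call in mRNA held in each alternative, with adjusted P up to 0.028, and that in translational efficiency was lost without Cas9 mRNA replicate a (adjusted P = 0.41), without any of the 4 footprint libraries (0.18 to 0.45) and with the replicate block (0.11).

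Between Cas9 and dCas9 cells, none of the 18 tested genes of homologous recombination passed at 72 h, and no gene of the 3 lists passed at 36 h over all libraries. PARP2 footprints passed at 36 h without dCas9 footprint replicate d (log2 change 1.14, adjusted P = 0.089), against 0.48 (adjusted P = 0.57) with it. In the footprint to mRNA ratio of dCas9 cells at 72 h, where 70.6% of all tested genes passed, 1 of the 18 recombination genes was above and 12 were below 1, 3 and 10 of the 17 end preparation genes, and 3 and 2 of the 8 genes of alternative end joining. The median mRNA log2 change at 72 h was 0.10 for the 9 end joining genes, 0.16 for homologous recombination, 0.043 for the end preparation list and -0.12 for alternative end joining, beside 0.017 over all tested genes. DNTT, the relative of POLM that lymphocytes use to add bases at antigen receptor joints, had 0 counts at 36 h but for 3 counts in 1 mRNA library, Cas9 replicate b.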

How the data were processed

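Ribosome footprints and mRNA of HEK293 cells were analysed in 17 libraries. Alignment by the authors used hisat2 for 36 h and tophat for 72 h, each with a GENCODE annotation of its own release, followed by fp-count. Whether counting used the strand is not given in the sources used here. The deposited tables give, for each transcript, raw read counts and the counted coding length in codons, 20 (36 h) or 19 (72 h) codons shorter than the coding region. For every library the labels name HISAT2 2.1.0 only.

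Transcripts were matched to GENCODE release 44, and the transcript with the highest summed count per gene and time point was kept. CPM divide a count by the library's total over tested genes times its TMM factor. Each time point was fitted in edgeR 4.0.16 (R 4.3.3) with a mean for each nuclease and library type. DESeq2 1.42.0 was an alternative. The edgeR tests of footprints and of mRNA between Cas9 and dCas9 were tested on simulated data, with both library types together and each alone. The tests of translational efficiency, of the ratio and of the time difference were not, nor were DESeq2, the GC offset and the replicate blocks. SE was taken from the log2 change and the F statistic, and intervals are 95%. For GC content, an offset of a lowess trend (span 0.3) was used.

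Nothing in the labels says more of the replicates than their letters, and the methods call them biological replicates. The paper divided lysates between footprint and mRNA libraries but does not tie letters to lysates. Libraries with the same letter at 36 h were taken to share a lysate and are called so here. All 10 genes are named whatever their values, and of the end preparation list the genes past a false discovery rate of 0.1 between Cas9 and dCas9, with DNTT. PARP1 and PARP2 were named after their values were seen. The genes and lists were chosen with earlier results of these data known.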

Additional observations from a re-analysis of the deposited data

Results flagged for a closer look

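The mRNA difference between Cas9 and dCas9 cells differed between the time points for MDC1, by a test of the difference itself in 1 fit of all 17 libraries. Its log2 change was 0.11 ± 0.14 at 36 h and -0.70 ± 0.10 at 72 h, a difference of -0.81 (adjusted P = 0.042 in edgeR). Without single libraries the difference lay between -0.90 and -0.69, and it no longer passed without Cas9 replicate c (adjusted P = 0.15) or dCas9 replicate e (0.36) of the 36 h mRNA or without Cas9 replicate a (0.56) or dCas9 replicate b (0.18) of the 72 h mRNA. Time, guide preparation, aligner and annotation cannot be told apart.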

How the results depend on the processing

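Over 1692 alternative values of the 9 genes, 28 passed the threshold only under the alternative, 3 no longer passed, and none past the threshold changed sign; 122 that passed in neither fit changed sign and are counted as unchanged. In the 6 comparisons of Cas9 with dCas9, a gene of the 9 passed only in mRNA at 72 h: 1 with the GC content offset, and 0 to 2 without single libraries. For the ratio in dCas9 cells, 0 to 1 (36 h) and 1 to 4 (72 h) of them passed without single libraries. With DESeq2, with its size factors in edgeR and with the GC offset 2 passed at 36 h, and 3, DCLRE1C included, with every gene with any count. At 72 h 4 passed (NHEJ1 and POLL in each, with POLM, XRCC5, PAXX, LIG4 or DCLRE1C) with DESeq2 size factors, with any count, with the GC offset, with the replicate block and with the crossed block.

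Counts over all genes moved more. DESeq2 gave 46 genes for footprints and 1 for translational efficiency at 36 h, 221 for translational efficiency at 72 h, and 21, 179 and 35 for the time differences in footprints, mRNA and translational efficiency. Its size factors in edgeR gave 1 (footprints 72 h), 170 (translational efficiency 72 h) and 71 (mRNA time difference). Keeping any count gave 21 (footprints 36 h), 2 (mRNA 36 h), 2 (footprints 72 h), 260 (translational efficiency 72 h) and 0 (footprint time difference). Each type alone gave 2 (mRNA 36 h), 4 (footprints 72 h) and 293 (mRNA 72 h). The GC offset gave 1 for footprints at each time, 1963 (mRNA 72 h), 583 (translational efficiency 72 h) and 6, 150 and 16 for the time differences. Without single libraries the counts ran from 0 to 918 and 0 to 1 for footprints at 36 h and 72 h, 110 to 2472 for mRNA at 72 h, 0 to 474 and 1 to 1065 for translational efficiency, 2994 to 4889 and 6623 to 7802 for the ratio, and 0 to 941, 1 to 89 and 0 to 796 for the time differences. Causes were not tested.

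Libraries with the same letter shared little of their deviation from the group mean. At 36 h the deviations of footprint and mRNA of a lysate correlated at 0.011 to 0.065. The dCas9 lysates d and e give the same value, since 2 libraries deviate from their mean in mirror image. Deviations of same-lettered nucleases at 72 h correlated at 0.011 (footprints) and -0.14 (mRNA). These values do not decide whether samples were paired. With the replicate block 535 genes passed in mRNA and 88 in translational efficiency at 72 h. Crossed letters for mRNA, chosen after seeing the data, gave 1133, 249 and, for footprints, 1. Depth limits the 36 h footprints, where XRCC4, LIG4, NHEJ1, POLL, POLM and DCLRE1C had 1 to 99 counts a library.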
